A study of Homo sapiens with 5 samples.

Results

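Aminoacyl-tRNA synthetases attach each amino acid to its transfer RNA, the step that supplies the ribosome with charged tRNA. The 36 synthetase genes described here were chosen by name: 20 that encode cytosolic enzymes or subunits, or enzymes used in both compartments, and 16 whose symbol ends in 2 and whose products work in mitochondria. All 36 were found among the 58812 genes of the count table, and all 36 passed the filter on low counts in every comparison. The older symbols are used throughout, so that SARS is the gene now called SARS1 and AARS the gene now called AARS1.

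The libraries came from C4-2B, a human cell line of castration-resistant prostate cancer that descends from LNCaP, and from clones of it that carry HOXB13 K13A, in which lysine 13 of the prostate homeobox factor HOXB13 is replaced by alanine, so that this residue cannot be acetylated. The groups were parental C4-2B (2 libraries), the mutant clone C4K13A (2 libraries) and the mutant clone C5K13A (1 library), all grown in the medium used for C4-2B with no further treatment named. Each mutant name stands for 1 clone, and no clone without the mutation was sequenced, so the mutation and clonal differences cannot be told apart. The labels do not say whether libraries of a group came from separate cultures. The p-values therefore set each difference against the variation among these libraries, which within a group of 1 clone or of parental cells may be technical. In K13A against parental that variation also holds the difference between the clones, and the 2 libraries of C4K13A count separately.

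Total RNA depleted of ribosomal RNA was sequenced to between 43190276 and 57282373 counted reads per library, and the 36 synthetase genes took between 0.492% and 0.582% of them. The 9 luminal prostate markers examined, HOXB13 among them, were all present, and 5 leukocyte markers summed to at most 0.374 CPM in any library. CPM is the count of a gene relative to its TMM-scaled library total. Fibroblast markers summed to 5.12 to 6.98 CPM with LUM at 0, and endothelial markers to 5.61 and 5.73 CPM in parental and 2.66 to 4.34 CPM in K13A libraries, mostly VWF, and the part of these in the results was not tested. HOXB13 itself lay at 338 and 448 CPM in the parental libraries and between 344 and 352 CPM in the K13A libraries, and gene counts do not show whether the residue was changed. The parental libraries differed from each other. Mitochondrial ribosomal RNA left after depletion was 28.0 CPM in parental library 1 and 1761 CPM in parental library 2, against 63.2 to 669 CPM in the K13A libraries. Of the cytosolic synthetases, 16 of 20 were higher in parental library 2 than in parental library 1 (median log2 difference 0.19), as were 12 of 16 mitochondrial ones (median 0.33), against 49.6% of all genes tested (median -0.01). Values without a parental library are therefore given beside the main results below.

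Cells use separate enzymes for the cytosol and for mitochondria, with a few exceptions. GARS and KARS each encode both forms, EPRS joins the glutamyl and prolyl enzymes in 1 polypeptide, and mitochondria make glutaminyl-tRNA by an amidotransferase route, so that QARS has no mitochondrial namesake. FARSA and FARSB encode the α and β subunits of the cytosolic phenylalanyl enzyme. Uncharged tRNA activates the kinase GCN2 (gene EIF2AK4), which raises translation of the transcription factor ATF4, and ATF4 is known to activate many cytosolic synthetase genes through composite C/EBP-ATF elements in their promoters.

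That element was looked for in the promoter windows of RefSeq (GRCh38.p14), which run from 250 bases before a transcript start to 50 bases after it. Where a gene has more than 1 window, they are counted together as 1. Of the 36 genes, 30 had a window, and DARS, LARS, VARS, YARS, AARS2 and VARS2 had none. The letters TGATGNAA, searched on both strands, occurred in 7 of 16 cytosolic windows and in 1 of 14 mitochondrial windows, against 4.46% of the 27305 genes with a window. The matches are shown because they sort the cytosolic genes by a feature that was not derived from the counts. They are written 5′ to 3′ on the strand of the gene, with the match in capitals. A match that lies on the other strand reads as the reverse complement, which applies to all of the following but NARS, YARS2 and ASNS.
AARS, chr16:70289666-70289713, minus strand: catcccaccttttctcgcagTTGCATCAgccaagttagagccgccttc
CARS, chr11:3057398-3057445, minus strand: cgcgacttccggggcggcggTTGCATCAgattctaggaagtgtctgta
GARS, chr7:30594825-30594872, plus strand: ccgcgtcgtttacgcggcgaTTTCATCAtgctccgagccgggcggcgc
IARS, chr9:92293683-92293730, minus strand: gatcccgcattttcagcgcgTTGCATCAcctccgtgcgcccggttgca
MARS, chr12:57488044-57488091, plus strand: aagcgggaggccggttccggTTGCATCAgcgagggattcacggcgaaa
NARS, chr18:57621807-57621842, minus strand: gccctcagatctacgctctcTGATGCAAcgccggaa
TARS, chr5:33440947-33440994, plus strand: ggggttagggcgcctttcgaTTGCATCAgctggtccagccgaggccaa
YARS2, chr12:32756067-32756114, minus strand: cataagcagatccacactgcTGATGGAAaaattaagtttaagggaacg

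In AARS, CARS, IARS, MARS and TARS the printed letters were the same, TTGCATCA, and GARS read TTTCATCA. Positions are counted from the RefSeq start of the window, with bases before it negative. The match lay at -4 to 4 in MARS, at -33 to -26 in GARS and at -187 to -180 in AARS. That start can lie inside the gene as annotated, as in MARS, where the annotated gene begins at chr12:57475445. In YARS2 it lay at -197 to -190. For comparison, the windows of asparagine synthetase (ASNS) and the glutathione-degrading enzyme CHAC1, both known ATF4 targets, held the following matches.
ASNS, chr7:97872449-97872496, minus strand: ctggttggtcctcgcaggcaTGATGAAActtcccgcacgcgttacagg
CHAC1, chr15:40953242-40953289, plus strand: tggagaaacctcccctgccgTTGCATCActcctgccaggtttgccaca

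SARS, the gene with the largest difference below, had no TGATGNAA in its window. The last 80 bases before its first RefSeq start (chr1:109213813-109213892, plus strand) are shown. They hold an ETS match (CCGGAAG, here as its reverse complement) and a match to the NRF1 motif, both in capitals.
SARS: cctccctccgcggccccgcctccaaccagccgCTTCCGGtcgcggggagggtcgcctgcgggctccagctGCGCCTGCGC

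HARS and HARS2, the cytosolic and mitochondrial histidyl enzymes, are divergent neighbours. The 84 bases between their starts (chr5:140691371-140691454, plus strand, HARS leaving to the left and HARS2 to the right) carry an ETS match facing each way.
HARS2: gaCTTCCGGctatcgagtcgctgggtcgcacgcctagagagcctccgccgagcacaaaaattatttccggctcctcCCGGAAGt

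The other searched letters did not separate the lists to the same extent. The ETS letters CCGGAAG occurred in 9 of 16 cytosolic and 7 of 14 mitochondrial windows (12.2% of genes with a window), and the NRF1 motif in 3 and 3 (6.98%). The core of the cAMP response element, TGACG, occurred in 7 and 5 (28.4%), and the E-box CACGTG in 1 and 3 (8.77%). The HOXB13-type letters CAATAAA occurred in no synthetase window, against 4.93% of genes. A match describes letters in a window, and its absence says only that those letters are not there.

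Levels of different genes were compared as CPM per kb of the principal transcript. Another choice of length would change the order of some genes. CARS2 has a principal transcript of 1.879 kb and merged exons of 10.46 kb. For HARS these lengths are 2.44 and 7.853 kb, and for DARS 2.361 and 4.014 kb. SARS, which charges serine and selenocysteine tRNAs, had the highest mean parental level (205 and 149 CPM per kb in parental libraries 1 and 2), followed by GARS (135 and 195), FARSA (116 and 147) and AARS (130 and 124). SARS and GARS changed places between the parental libraries, so their order does not exceed the spread. Of the cytosolic genes, DARS, for aspartate, had the lowest mean parental level (25.7 and 28.4 CPM per kb). By mean parental level, 13 of the 16 mitochondrial enzymes lay below every cytosolic one. The exceptions were IARS2 (45.8 and 44.1 CPM per kb), CARS2 (28.1 and 48.4) and EARS2 (23.1 and 34.0), which reached into the cytosolic range. SARS2, for mitochondrial serine, was the lowest at 0.623 and 0.191 CPM per kb, and its counts are uncertain. Its exons share 1492 bases with an annotated transcript on the same strand and 349 bases with MRPS12 on the opposite strand.

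The median cytosolic level was 76.0 and 85.4 CPM per kb in the parental libraries, 58.9 and 63.4 in the C4K13A libraries and 66.9 in the C5K13A library. The median mitochondrial level was 9.71 and 12.0 CPM per kb in the parental libraries, 12.2 in each C4K13A library and 12.8 in the C5K13A library. The cytosolic median was thus 7.83 and 7.11 times the mitochondrial median in the parental libraries, 4.82 and 5.19 times in those of C4K13A, and 5.22 times in that of C5K13A. All 3 K13A libraries lay below both parental libraries in this ratio. The ratio of summed CPM, which the most abundant genes dominate, went from 7.19 and 6.27 in the parental libraries to 5.36, 5.92 and 5.17 in C4K13A 1, C4K13A 2 and C5K13A. These ratios are given without a test, since the members were chosen with earlier results known.

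**Figure D1:**
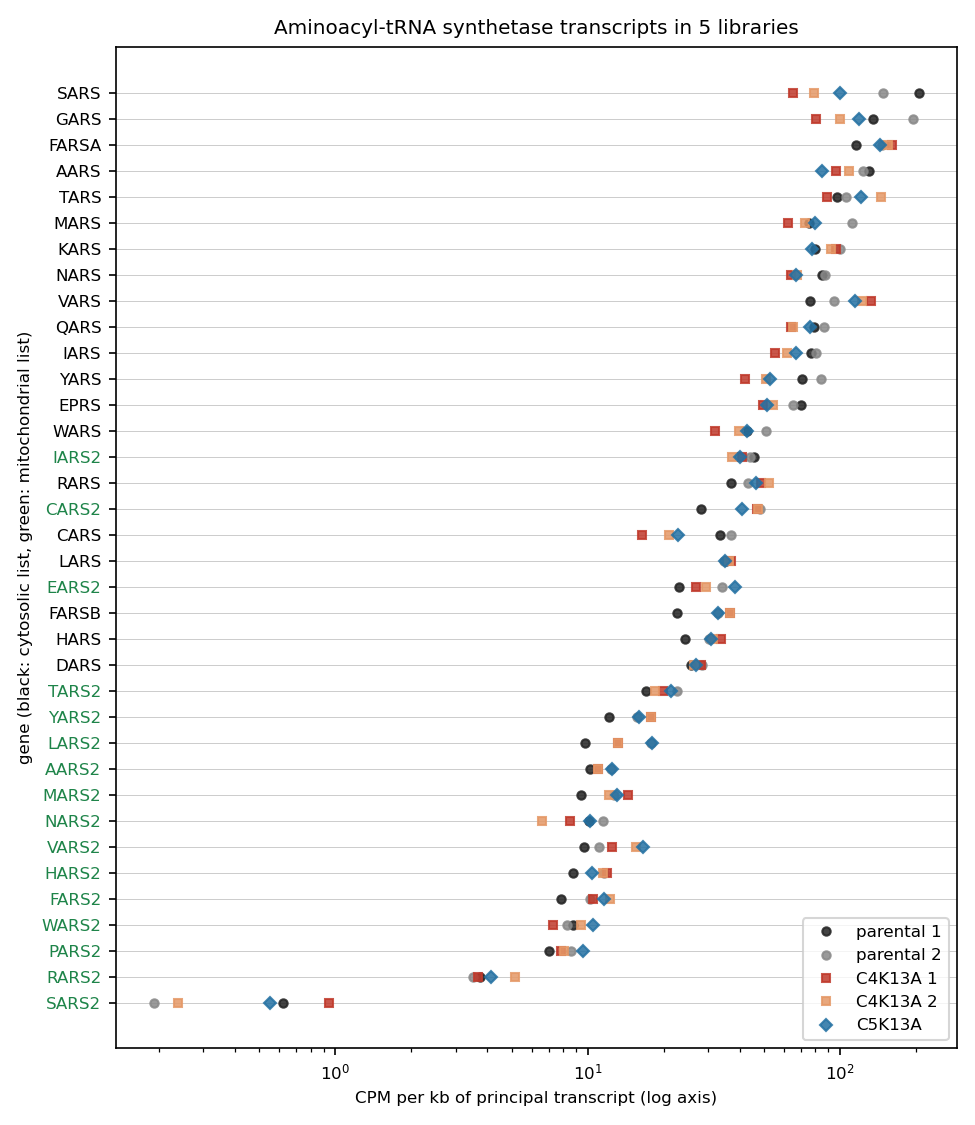
Level of each of the 36 synthetase genes in each of the 5 libraries, in CPM per kb of the principal transcript on a log axis, ordered by mean parental level. Each point is 1 library. Cytosolic genes (black names) fill the upper part, led by SARS and GARS, and IARS2, CARS2 and EARS2 are the mitochondrial genes (green names) among them.

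The main question of the design is how K13A clones differ from parental cells. For the synthetases, the cytosolic genes leaned to lower values and the mitochondrial genes did not. Of the cytosolic genes 12 of 20 had a negative fitted log2 fold change, with a median of -0.29 and a range of -1.12 to 0.53. Of the mitochondrial genes 2 of 16 were negative, with a median of 0.15 and a range of -0.36 to 0.52. Over all 20649 genes tested 50.6% were negative and the median was -0.01. No synthetase passed a Benjamini-Hochberg adjusted p of 0.05 in edgeR's quasi-likelihood test, where 0.203% of genes were called, 0.189% lower and 0.0145% higher.

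Without adjustment, 8 cytosolic genes were lower at p under 0.05 (SARS, CARS, YARS, GARS, EPRS, NARS, AARS and IARS) and 1 was higher (VARS), against 6.68% of all genes lower and 4.3% higher. Of the mitochondrial genes none was lower and 1, VARS2, was higher at that level. DESeq2 called 3 cytosolic genes lower, SARS (adjusted p = 0.0012), CARS (adjusted p = 0.00961) and YARS (adjusted p = 0.026), and no mitochondrial gene, with 1.83% of genes called lower and 0.967% higher. In 10 cytosolic genes (those 8, QARS and WARS) all 3 K13A libraries lay below both parental libraries and in 3 (HARS, RARS and VARS) above them, where 14.9% of all genes lay wholly below and 13.6% wholly above. Of the mitochondrial genes 1 (IARS2) lay wholly below and 3 (FARS2, VARS2 and YARS2) wholly above. The difference between the lists was not tested.

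Those counts depend on single libraries. Without parental library 1, 9 of 16 mitochondrial genes were negative with a median of -0.03, and without parental library 2, 3 of 16 with a median of 0.32, so the positive mitochondrial median rests on parental library 1. AARS2, CARS2, EARS2, HARS2, LARS2, PARS2 and TARS2 changed sign without parental library 1. Without C5K13A 7 of 16 mitochondrial genes were negative. Of the cytosolic genes, 11 to 13 of 20 were negative with any 1 library left out. At an unadjusted p under 0.05, 5 cytosolic and 6 mitochondrial genes were higher without parental library 2, against 9.5% of all genes in that fit, and 0 and 0 were higher without parental library 1, against 2.51%. The cytosolic genes lower at that level were 6 without parental library 2 (9.19% of all genes) and 7 without parental library 1 (3.01%). The cytosolic median was negative without either, at -0.34 without parental library 1 and -0.13 without parental library 2. With residual ribosomal RNA as a covariate the medians were -0.33 and 0.12. Leaving out a K13A library also lowered the count of lower cytosolic genes at an unadjusted p under 0.05. It was 4 without C4K13A library 1 (6.21% of all genes), 5 without C4K13A library 2 (3.82%) and 5 without C5K13A (8.32%). With the C4K13A libraries summed, so that the clone counts once, 4 cytosolic genes were lower and 1 higher. In that fit 1558 genes passed in either direction.

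**Figure D2:**
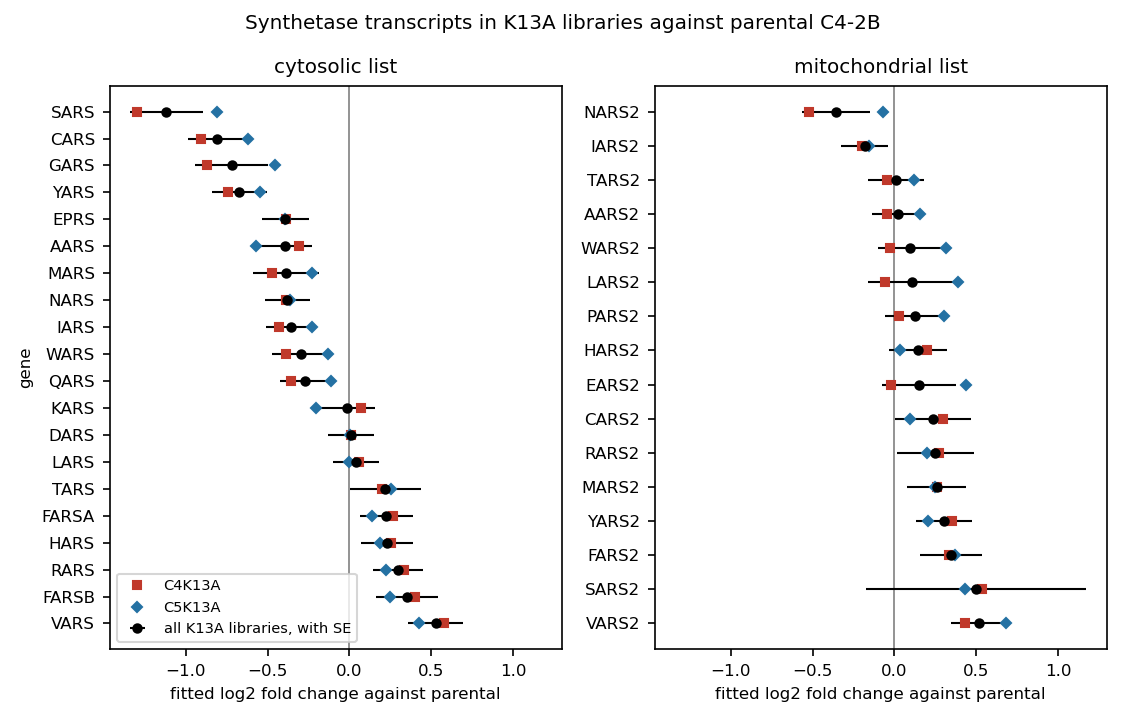
Fitted log2 fold change against parental C4-2B for the 20 cytosolic genes (left) and the 16 mitochondrial genes (right), from edgeR. Black points are all 3 K13A libraries with the standard error, red squares C4K13A and blue diamonds C5K13A. SARS is farthest to the left at -1.12 and VARS farthest to the right on the cytosolic side at 0.53.

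SARS (ENSG00000031698, chr1:109213918-109238169, GRCh38) had 380.5 and 275.5 CPM in the parental libraries, 121 and 146 CPM in C4K13A, and the C5K13A library had 186 CPM. All K13A libraries were below both parental libraries, and the parental libraries were themselves well apart. The log2 fold change was -1.12 ± 0.22 (SE), with an adjusted p of 0.147 in edgeR. Leaving out parental library 1 gave -0.87 and leaving out parental library 2 gave -1.33.

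CARS (ENSG00000110619, chr11:3000922-3057613), for cysteine, had 89.5 and 99.7 CPM in the parental libraries against 44.2, 56.7 and 61.3 CPM in C4K13A 1, C4K13A 2 and C5K13A. The parental values were close to each other and the K13A values all lay well below them. The log2 fold change was -0.81 ± 0.18 (SE), with an adjusted p of 0.184 in edgeR. YARS (ENSG00000134684, chr1:32775237-32818153), for tyrosine, had 229 and 273 CPM in the parental libraries against 136, 165 and 171 CPM in C4K13A 1, C4K13A 2 and C5K13A. The groups did not overlap, and the log2 fold change was -0.68 ± 0.17 (SE) with an edgeR adjusted p of 0.224. GARS (ENSG00000106105, chr7:30594681-30634033), for glycine in both compartments, had 355 and 512.5 CPM in the parental libraries against 212, 264 and 315 CPM in the K13A libraries in the same order. Parental library 2 stood far above the other four, and the gap between parental library 1 and C5K13A was small. The fold change of GARS was -0.72 ± 0.22 (SE, log2) with an edgeR adjusted p of 0.302, and it was -0.43 without parental library 2.

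EPRS, NARS and AARS showed smaller differences of like size. EPRS, for glutamate and proline, had 353 and 328 CPM in the parental libraries and 248, 272 and 258 CPM in C4K13A 1, C4K13A 2 and C5K13A. NARS, for asparagine, had 263 and 271 CPM against 199, 209.8 and 207 CPM in the same order. AARS, for alanine, had 452 and 429.6 CPM against 334.5, 379 and 295 CPM. In these genes the groups did not overlap, and AARS was lowest in C5K13A where the preceding genes were lowest in C4K13A 1. The log2 fold changes were -0.39 ± 0.14 (SE) for EPRS, -0.38 ± 0.14 for NARS and -0.39 ± 0.16 for AARS, with edgeR adjusted p-values of 0.38, 0.38 and 0.437. IARS, for isoleucine, and WARS, for tryptophan, also lay wholly below the parental libraries, with log2 fold changes of -0.36 and -0.30 (for WARS -0.17 without parental library 2). In WARS the groups nearly touched, at 132.9 CPM in parental library 1 and 132 CPM in C5K13A.

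**Figure D3:**
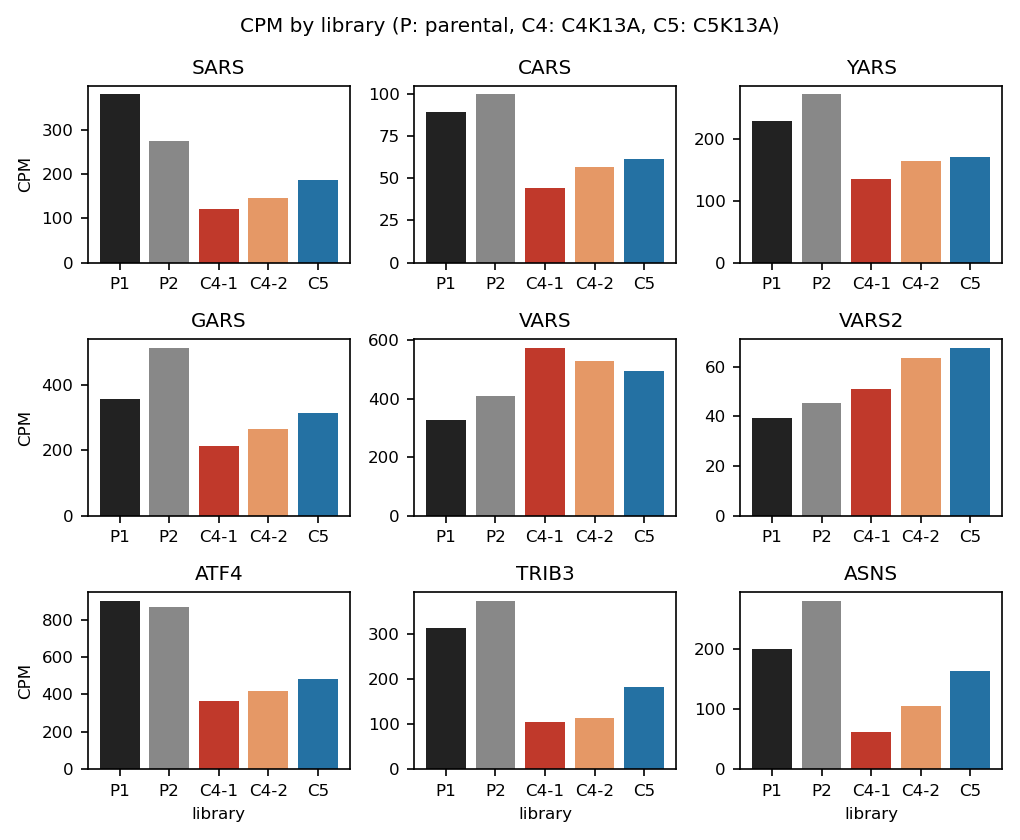
CPM in each of the 5 libraries (P1 and P2 parental, C4-1 and C4-2 the C4K13A libraries, C5 the C5K13A library) for 6 synthetase genes, ATF4 and its readouts TRIB3 and ASNS. Each bar is 1 library and has no error bar. SARS, CARS, YARS, GARS, ATF4, TRIB3 and ASNS were higher in both parental libraries than in any K13A library, and VARS and VARS2 were lower.

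The valyl enzymes of both compartments had higher values in the clones. VARS, on chromosome 6, had 329 and 409.9 CPM in the parental libraries and 575, 529 and 494 CPM in C4K13A 1, C4K13A 2 and C5K13A, with a log2 fold change of 0.53 ± 0.17 (SE) and an edgeR adjusted p of 0.313. VARS2, on the same chromosome arm, had 39.5 and 45.3 CPM in the parental libraries and 51.1, 63.4 and 67.7 CPM in the K13A libraries, with a log2 fold change of 0.52 ± 0.18 (SE) and an edgeR adjusted p of 0.338. In both genes the groups did not overlap. The exons of VARS2 share 1858 bases with GTF2H4 on the same strand, a gene that was counted at 0.0955 CPM or less in the group means. That low count does not show how reads of the shared bases were assigned, so the VARS2 counts are uncertain to that extent. FARSB, the β subunit for phenylalanine, had 76.1 and 111 CPM in the parental libraries against 124, 123 and 110.3 CPM, so that the groups overlapped. FARSA, its partner, also overlapped between groups (209.7 and 266 CPM against 292, 281 and 261 CPM). Fold changes were 0.35 ± 0.19 (SE, log2) for FARSB, which was 0.10 without parental library 1, and 0.23 ± 0.16 for FARSA, which was 0.06 without it.

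KARS and QARS complete the enzymes with an unusual mitochondrial arrangement. KARS, for lysine in both compartments, had 159 and 201 CPM in the parental libraries and 193.5, 185.5 and 156 CPM in C4K13A 1, C4K13A 2 and C5K13A, with a log2 fold change of -0.02 ± 0.17 (SE). QARS, for glutamine, had 223 and 244 CPM against 181, 184.5 and 215 CPM, with a log2 fold change of -0.27 ± 0.15 (SE). KARS overlapped between the groups, while QARS had all K13A libraries below the parental ones by a narrow margin. The amidotransferase subunits QRSL1, GATB and GATC, which make mitochondrial glutaminyl-tRNA, and the methionyl-tRNA formyltransferase MTFMT had log2 fold changes of 0.12, -0.03, 0.35 and 0.40. None of these 4 was called by edgeR in any of the comparisons.

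Among the mitochondrial enzymes, FARS2, for phenylalanine, had 13.2 and 17.3 CPM in the parental libraries and 17.8, 20.8 and 19.7 CPM in C4K13A 1, C4K13A 2 and C5K13A. YARS2 had 25.9 and 33.4 CPM against 37.7, 38.0 and 34.1 CPM. In both genes the K13A libraries lay above the parental ones, but parental library 2 was close to the lowest of them. The log2 fold changes were 0.35 ± 0.19 (SE) for FARS2 and 0.30 ± 0.17 for YARS2, with edgeR adjusted p-values of 0.542 and 0.553. Without parental library 1 they were 0.17 and 0.13.

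NARS2 and IARS2 were the mitochondrial genes with negative fold changes. NARS2 had 25.5 and 28.9 CPM in the parental libraries, 21.4 and 16.6 CPM in C4K13A, and 25.8 CPM in the C5K13A library, which placed the C5K13A library between the parental ones. IARS2, for isoleucine, had 163 and 157 CPM against 146, 133.5 and 143 CPM, with no overlap. The log2 fold changes were -0.36 ± 0.21 (SE) for NARS2 and -0.18 ± 0.14 for IARS2. The other 12 mitochondrial genes had log2 fold changes between 0.01 and 0.52.

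A group of 8 cytosolic enzymes (EPRS, IARS, LARS, MARS, QARS, RARS, KARS and DARS) is held in the multisynthetase complex by the scaffold proteins AIMP1, AIMP2 and EEF1E1. In the complex 5 of 8 enzymes had a negative fold change with a median of -0.14, and outside it 7 of 12 did with a median of -0.34, against the median of -0.01 over all genes. Of the genes lower at an unadjusted p under 0.05, 2 were in the complex (EPRS and IARS) and 6 outside it. Values in the complex lay on both sides of 0. RARS had log2 fold change 0.30 ± 0.15 (SE) with no overlap between the groups (0.19 without parental library 1), LARS 0.04 ± 0.14 and DARS 0.01 ± 0.14. The scaffolds AIMP1, AIMP2 and EEF1E1 had log2 fold changes of 0.21, -0.21 and 0.57, and none was called.

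Split by the promoter letters, 6 of the 7 cytosolic genes with a TGATGNAA match lay below 0 in fold change, and the median of the 7 was -0.39. In 5 of them (AARS, CARS, GARS, IARS and NARS) the K13A libraries all lay below the parental ones, as in 14.9% of all genes tested. The exception in sign was TARS, for threonine, with 421 and 457 CPM in the parental libraries and 384, 628 and 522 CPM in C4K13A 1, C4K13A 2 and C5K13A. Of the 9 cytosolic genes with a window and no match 5 were negative, with a median of -0.02, and they included SARS. In these 9, the K13A libraries lay wholly below the parental ones in 4 and wholly above in 2. YARS2, the mitochondrial gene with a match, had a fold change of 0.30. A lean to lower values was not particular to TGATGNAA. The 7 cytosolic genes with the TGACG core were AARS, CARS, EPRS, FARSA, GARS, KARS and WARS, which include AARS, CARS and GARS from the TGATGNAA matches. Of these, FARSA alone had a positive fold change (0.23), and KARS was near 0 (-0.02). Neither split was tested.

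**Figure D4:**
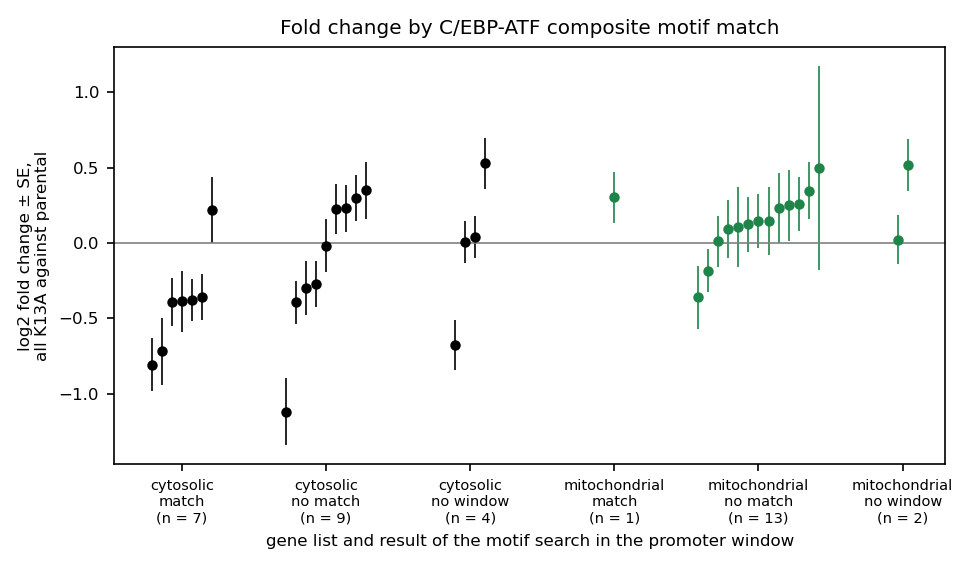
Fitted log2 fold change (all K13A libraries against parental, with standard error) of each synthetase gene, grouped by list and by whether its promoter window holds TGATGNAA on either strand. The 7 cytosolic genes with a match have a median of -0.39 with TARS above 0, and the 9 without a match spread from -1.12 for SARS to 0.35 for FARSB.

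MARS, for methionine, had 220 and 324 CPM in the parental libraries and 181, 211 and 231 CPM in the K13A libraries. Its log2 fold change was -0.39 ± 0.20 (SE), and -0.08 without parental library 2. Its exons share 355 bases with DDIT3 on the opposite strand, which went from a mean of 41.4 CPM in parental cells to 8.56 CPM in the clones. The strand setting of the counting is not given in the sources used here, so reads of the shared bases cannot be assigned with certainty. Exons of 20 of the 36 genes overlap another annotated gene. HARS and HARS2 share 437 exon bases on opposite strands, and they had log2 fold changes of 0.23 ± 0.16 (SE) and 0.14 ± 0.18, which were 0.075 and -0.046 without parental library 1.

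Each mitochondrial enzyme was also set against its cytosolic counterpart within a library, as the log2 ratio of CPM per kb, over 16 pairs in which EPRS serves as partner of both EARS2 and PARS2. In 8 pairs all K13A libraries had a lower ratio than both parental libraries, and in 8 the groups overlapped. No share over other gene pairs was computed to set beside this count (of single genes, 14.9% lay wholly lower and 13.6% wholly higher), so it is given as a description. CARS over CARS2 had log2 ratios of 0.25 and -0.38 in the parental libraries against -1.51, -1.17 and -0.84 in C4K13A 1, C4K13A 2 and C5K13A. By this measure CARS lay above CARS2 in parental library 1 and below it in every other library. The order depends on the transcript lengths used. In CPM not divided by length, mean CARS and CARS2 were 94.6 and 71.9 in parental and 54.1 and 84.6 in K13A libraries. YARS over YARS2 had ratios of 2.54 and 2.42 in the parental libraries against 1.24, 1.51 and 1.72 in the K13A libraries. For MARS over MARS2 the ratios were 3 and 3.13, then 2.11 and 2.58, then 2.60. The mean differences were -1.10 for the cysteinyl pair, -0.99 for the tyrosyl pair and -0.64 for the methionyl pair. The other non-overlapping pairs were AARS over AARS2, EPRS over EARS2, IARS over IARS2, EPRS over PARS2 and WARS over WARS2, with differences between -0.55 and -0.18. In the alanyl and isoleucyl pairs and in EPRS over EARS2 the margin between the groups was small. The valyl pair overlapped, with a mean log2 ratio of 3.04 in parental and 3.06 in K13A libraries, since both genes had higher values in the clones. SARS over SARS2 had the largest mean difference (-1.65), which rests on the low and uncertain counts of SARS2, and its groups touched at 8.37.

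**Figure D5:**
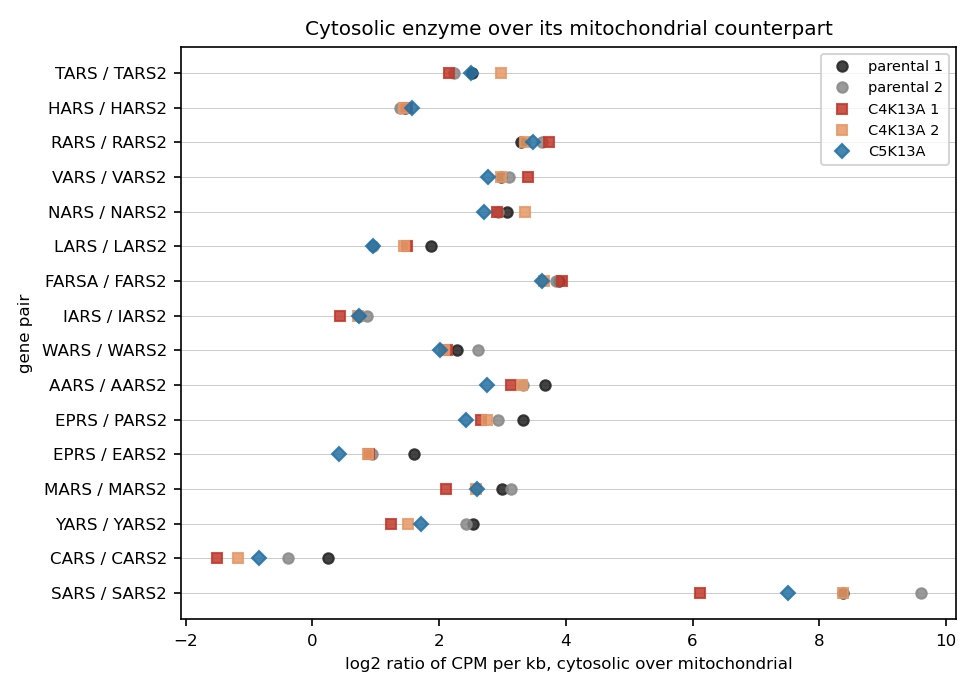
Log2 ratio of CPM per kb of each cytosolic enzyme over its mitochondrial counterpart in each of the 5 libraries, 1 row per pair, ordered by the difference between K13A and parental means. Each point is 1 library. The cysteinyl and tyrosyl pairs show the K13A libraries (squares and diamond) clear to the left of the parental libraries (circles), and the threonyl, histidyl, arginyl and valyl pairs do not.

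In clone C4K13A against parental cells, 11 of 20 cytosolic genes were on the negative side (median -0.33), and 7 of 16 mitochondrial genes (median 0.11), against 51.1% of the 22743 genes tested and a median of -0.01. SARS fell, with a log2 fold change of -1.30 ± 0.22 (SE) and an edgeR adjusted p of 0.0493, the 1 synthetase called, where 0.699% of genes were called, 0.602% lower and 0.0967% higher. That call sits at the threshold. It was lost without C4K13A library 1 (log2 -1.16, adjusted p = 0.179), without C4K13A library 2 (-1.44, 0.101) and without C5K13A (-1.30, 0.0616). It was also lost with RLE factors (adjusted p = 0.05), a stricter filter at 5 CPM (0.0916) and limma-voom (0.0571), and 7 of 13 alternatives made it. DESeq2 called SARS, CARS, GARS and YARS lower (adjusted p = 1.28e-05, 0.00627, 0.0211 and 0.0368), with 2.63% of genes called lower and 1.08% higher. The mitochondrial median was -0.02 without parental library 1 and -0.001 under the stricter filter, which tested 15 of the 16 genes.

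CARS had a log2 fold change of -0.91 ± 0.20 (SE) in C4K13A with an edgeR adjusted p of 0.0969, and YARS -0.74 ± 0.20 with 0.17. In edgeR without adjustment 5 cytosolic genes were lower (SARS, CARS, YARS, GARS and IARS) and VARS higher, against 7.93% of genes lower and 4.27% higher. NARS2 was the mitochondrial gene lower at that level, at a log2 fold change of -0.52 ± 0.21 (SE) and an edgeR adjusted p of 0.363. Without parental library 2 edgeR called CARS and SARS lower and VARS, FARSB and CARS2 higher, among 1667 genes called (4.31% lower and 3.28% higher). Without parental library 1 it called CARS, GARS and SARS lower, among 298 genes (1.12% lower and 0.254% higher). In each of these fits the lone parental library was assumed to vary like the others.

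In clone C5K13A against parental cells, which rests on 1 library assumed to vary like the others, 13 of 20 cytosolic genes were negative with a median of -0.17, and 2 of 16 mitochondrial genes with a median of 0.23, against 52.8% of genes and a median of -0.03. No synthetase was called by edgeR or by DESeq2, where edgeR called 0.0484% of genes, 0.0308% lower and 0.0176% higher. VARS2, SARS and CARS had the smallest p-values, with log2 fold changes of 0.68 ± 0.23 (SE), -0.81 ± 0.28 and -0.62 ± 0.24 and edgeR adjusted p-values of 0.658, 0.672 and 0.729. These 3 and AARS (-0.57) were past an unadjusted p of 0.05, against 4.37% of genes lower and 2.09% higher. The cytosolic median was -0.02 without parental library 2, and the mitochondrial median 0.04 without parental library 1. The log2 fold change of SARS was -1.03 without parental library 2, a fit in which parental and C5K13A each had 1 library.

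The clones did not differ in any synthetase past the threshold. Set against C4K13A, C5K13A had a median log2 difference of 0.01 over the cytosolic genes and 0.10 over the mitochondrial genes, with a median of -0.03 over all genes. Negative differences were found in 10 of 20 and 6 of 16 genes, against 52.6% of all genes. No member was called by edgeR or past an unadjusted p of 0.05, where 0.066% of genes were called (0.0264% lower and 0.0396% higher), 2.93% were lower at an unadjusted p under 0.05 and 3.49% higher. The smallest p-values belonged to SARS, NARS2 and EARS2. SARS differed by 0.49 ± 0.26 (SE, log2), NARS2 by 0.45 ± 0.25 and EARS2 by 0.46 ± 0.27, with edgeR adjusted p-values of 0.841, 0.846 and 0.856. EARS2, for mitochondrial glutamate, had 106 and 117 CPM in C4K13A, 153 CPM in C5K13A, and 91.4 and 135 CPM in the parental libraries, so its parental libraries enclosed both C4K13A libraries.

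Transcripts of ATF4, of its readouts and of the sensor of uncharged tRNA were measured beside the synthetases. The charging of tRNA was not measured. ATF4 had 902 and 870.5 CPM in the parental libraries, then 365, 416 and 483 CPM in C4K13A 1, C4K13A 2 and C5K13A. All K13A libraries were below the lower parental library by a wide margin. It fell in C4K13A, by a log2 fold change of -1.18 ± 0.18 (SE) with an edgeR adjusted p of 0.0362. In all K13A libraries against parental its log2 fold change was -1.07 ± 0.17 with an edgeR adjusted p of 0.0735. The sensor kinase gene EIF2AK4 and its partner GCN1 had log2 fold changes of 0.06 and 0.30 in K13A against parental, with no call in any comparison.

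The 8 ATF4 readouts (ASNS, TRIB3, CHAC1, DDIT3, SESN2, PSAT1, CEBPB and VLDLR) all lay lower in every K13A library than in both parental libraries, with a median log2 fold change of -1.13 and no edgeR call at an adjusted p of 0.05. Of all genes tested 14.9% lay wholly lower. All 8 were lower at an unadjusted p under 0.05, against 6.68% of genes. In C4K13A, where 0.602% of genes were called lower, 4 of the 8 fell: DDIT3 (log2 -2.65), TRIB3 (-1.66), CEBPB (-1.23) and SESN2 (-1.23), with edgeR adjusted p-values of 0.00856, 0.0129, 0.0287 and 0.0338. DDIT3 and TRIB3 passed the threshold in all 13 alternatives, and ATF4, CEBPB and SESN2 in 10, failing without either C4K13A library and under the stricter filter. In C5K13A, with 1 library, all 8 readouts had negative fold changes against parental cells, with a median of -0.85. The clones differed in size here. Set against C4K13A, C5K13A had positive log2 differences in all 8, with a median of 0.65. DDIT3 encodes the stress factor CHOP, TRIB3 a pseudokinase that inhibits ATF4 and AKT, and SESN2 a leucine-binding regulator of mTORC1. ASNS had 200 and 281 CPM in the parental libraries, and 62.7, 105 and 163 CPM in the K13A libraries in the same order. Its log2 fold change in K13A was -1.12 ± 0.35 (SE). The median cytosolic synthetase (-0.29) therefore differed less than the median readout, and SARS (-1.12) lay within the range of the readouts (-2.28 to -0.78).

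Other genes of the tRNA and elongation pathway gave small values. The nuclear tRNA exporter XPOT had 502 and 535 CPM in the parental libraries and 374, 381 and 435 CPM in C4K13A 1, C4K13A 2 and C5K13A, with a log2 fold change of -0.39 ± 0.15 (SE) and an edgeR adjusted p of 0.413. Of 6 cytosolic elongation factor genes 5 were tested, with a median of -0.09 and a range of -0.31 to 0.27, and EEF1G, which another annotated gene overlaps, was counted at 0 in every library. The 4 mitochondrial elongation factor genes TUFM, TSFM, GFM1 and GFM2 had a median of 0.09. The editing and paralog genes AARSD1, DTD1, DTD2, DALRD3 and TARSL2 were all negative with a median of -0.15. None of these genes was called by edgeR in any comparison. In these bulk libraries, fewer cells with a high level and a lower level in each cell cannot be told apart.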

How the data were processed

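RNA from 5 libraries of C4-2B parental cells and HOXB13 K13A clones was, per the labels' protocols, depleted of ribosomal RNA before Illumina HiSeq sequencing. The authors deposited whole-number counts per gene. STAR 2.5 and featureCounts 1.4.6-p5 are named in the submitters' processing notes. For the genome build, annotation and strand setting, the sources used here give nothing. Groups follow the sample titles, and 0 columns of per-sample values were left unused.

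Symbols, positions and transcript lengths came from GENCODE release 29 (GRCh38), which held 55297 of the 58812 gene IDs. Counts were filtered with filterByExpr, scaled with TMM factors and tested with edgeR 4.0.16 (glmQLFit, glmQLFTest, R 4.3.3), with Benjamini-Hochberg adjustment over all genes tested and a threshold of 0.05. K13A against parental used 2 groups (3 residual degrees of freedom), and the clone comparisons used 3 groups (2 residual degrees of freedom), so that the lone C5K13A library was assumed to vary like the others. CPM values use the TMM factors of the 2-group fit. DESeq2 1.42.0, limma-voom (limma 3.58.1), other scalings and filters, a ribosomal RNA covariate, summed C4K13A libraries, a replicate block and each library left out were tried. The scripts were tested on simulated data. No libraries were duplicates by a chi-square comparison of counts.

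Library values are printed for the 8 cytosolic and 4 mitochondrial genes of smallest p in K13A against parental, the 3 of smallest p in each other comparison, EPRS, GARS, KARS and QARS, and the 2 of largest fold change against the direction of their list's median. FARSA, MARS, TARS and WARS were chosen after their values were seen, as were the ETS and HARS promoter sequences shown. The members and lists were chosen with earlier results of these data known. A total of 144 tests concern the 36 genes.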

Additional observations from a re-analysis of the deposited data

How the results depend on the processing

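Alternatives often moved the number of calls, and leaving out a library also moved the size of differences. MARS went from a log2 fold change of -0.387 to -0.079 without parental library 2. In K13A against parental, 0 mitochondrial genes were called under all 15 alternatives. Of the cytosolic genes 4 were called with no filter (CARS, GARS, SARS and YARS) and 3 by DESeq2. The whole table gave 42 calls, against 1167 with no filter, 2 with the stricter filter of 5 CPM, 555 by DESeq2, 11 by limma-voom, 71 with the ribosomal RNA covariate, 105 in the 3-group fit, 11 with the C4K13A libraries summed and 0 to 130 with a library left out. With a library left out the cytosolic median ranged from -0.338 to -0.125 and the mitochondrial median from -0.029 to 0.318, and KARS ranged from -0.176 to 0.163, changing sign without parental library 2 (0.163) and without C5K13A (0.070). In C4K13A against parental, the cytosolic calls were 0 with RLE factors, 0 with the stricter filter, 0 by limma-voom, 4 with no filter and 4 by DESeq2, and 0 to 4 with a library left out, where the mitochondrial calls were 0 to 1. The SARS adjusted p ranged from 8.82e-08 to 0.179. The whole table gave 159 calls, against 1346 with no filter, 32 with the stricter filter, 745 by DESeq2, 86 by limma-voom and 130 to 1667 with a library left out. In C5K13A against parental, the whole table gave 11 calls, against 578 with no filter, 0 with the stricter filter, 235 by DESeq2, 0 by limma-voom, 7 with mitochondrial, small and ribosomal RNA genes removed and 41 to 668 with a library left out, where cytosolic calls were 0 to 1, mitochondrial calls 0 to 1 and the cytosolic median -0.257 to -0.023. In C5K13A against C4K13A it gave 15 calls, against 7 with upper-quartile factors, 423 with no filter, 0 with the stricter filter, 182 by DESeq2, 0 by limma-voom and 51 to 155 with a library left out. The cause of these changes was not tested.

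Parental and C4K13A libraries share replicate numbers that the labels tie to nothing. The deviations of same-numbered libraries correlated at 0.196 over 20649 genes, with only 2 pairs. A replicate block in C4K13A against parental gave 885 calls over the table and 4 cytosolic calls (CARS, GARS, SARS and YARS), so it changed the call of CARS, GARS and YARS. The fit of C4K13A and parental libraries without C5K13A was added after the data were seen, and it made 0 cytosolic calls. The 2 parental libraries differ from each other and C5K13A has 1 library, which limits the precision of every comparison. By chi-square per gene the parental libraries were the least alike pair (101.9), and parental library 2 was nearest to C5K13A (33.3). Log2 CPM correlated at 0.972 between the parental libraries. The correlations with K13A libraries were 0.955 to 0.964 for parental library 1 and 0.969 to 0.975 for parental library 2. Depth was at least 43190276 counted reads a library.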
